A study of Mus musculus with 6 samples.

Results

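Microtubule motor, cilium and centrosome genes were described in lymphatic endothelial cells of the mouse meninges. The genes were taken by name from the deposited table: dynein, kinesin, intraflagellar transport, BBSome, centrosomal, tubulin, tubulin ligase and microtubule-associated protein symbols. The rule found 40 of the 4233 listed genes. It uses no measured value, although the table lists only part of the genome and the families are therefore not complete. No listed gene bears an axonemal dynein intermediate chain (Dnai), kinesin light chain (Klc) or pericentrin (Pcnt) symbol.

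The cells came from male mice aged 6 months on the C57BL/6J strain. The 3 WT libraries are from non-transgenic littermates. The 3 5xFAD libraries are from hemizygous 5xFAD mice, which carry mutant human transgenes under the neuronal Thy1 promoter and deposit amyloid in the brain. Each library is a pool of meninges from 10 mice, sorted for live single cells without CD45 and with CD31 and podoplanin (PDPN). Single animals are therefore not resolved. In the main limma fit a p-value rests on the spread between pools over genes of a similar level, without the gene's own replicate spread. Transgene reads were not analysed here. The comparison asks how the cells of 5xFAD mice differ from those of WT littermates.

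Microtubules are polar tubes of alpha- and beta-tubulin. Cytoplasmic dynein carries cargo towards their minus ends, and most kinesins walk towards the plus ends. The centrosome nucleates microtubules and its older centriole becomes the basal body of a cilium, which is built by intraflagellar transport. Endothelial cells can bear a single non-motile primary cilium that senses flow. Motile cilia, driven by axonemal dynein arms, are known from ependymal and airway cells and from sperm.

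The libraries held 7960827 to 13255050 recovered reads in the listed genes, a sum that leaves out the reads of unlisted genes. Listed genes without a read numbered 26, 25 and 42 in WT and 87, 86 and 147 in 5xFAD, more in every 5xFAD library, and the part of this in low values such as those of Cfap300 and Poc1b was not tested. The 40 genes held 54937 to 109939 reads, 0.690% to 1.03% of those reads. Lymphatic markers were abundant in all 6 libraries, with Prox1 at 14913 to 37762, Flt4 at 46699 to 59152 and Lyve1 at 20823 to 58061 normalised counts. Here, 16 of 18 lymphatic identity genes were listed, and 0 of those 16 were called (limma; the adjusted p ran from 0.119 to 0.992). Of 9 listed blood endothelial markers 1 fell, the arterial factor Sox17 (133, 52.1 and 17.7 normalised counts in WT and 0 in each 5xFAD library; limma adjusted p = 3.00e-06), and the sum of the 9 was 19464 to 30024 in WT and 21569.6 to 31112 in 5xFAD. None was called among the listed markers of fibroblasts (7), mural cells (4), leukocytes (2) or erythroid cells and platelets (1). The summed levels of each of these lists overlapped between the groups. Within each genotype no listed gene had a standard deviation (SD) of log2(reads + 1) of 2 or more (highest 2.00), so genes with more scattered replicates are not among those analysed.

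Many ciliary genes carry an X-box near their start, an inverted repeat bound by RFX transcription factors. The letters GTTGCC, 1 arm of the X-box, were searched on both strands in RefSeq promoters of build GRCm38.p6 (250 bases before to 50 after each start). Of the 40 genes, 32 matched a promoter and 13 of the 32 held the letters (40.6%), against 13.7% of listed genes and 14.1% of all genes of the promoter table. Among cilium and centrosome genes the count was 9 of 16 (56.2%), and among motor, tubulin and microtubule-associated genes 4 of 16 (25.0%). With the bases before the start alone the count was 7 of 32 (21.9%) against 11.6% of listed genes. The order of the classes was not kept there. It was 3 of 16 (18.75%) for cilium and centrosome genes and 4 of 16 (25.0%) for motor, tubulin and microtubule-associated genes. The full X-box was searched only as a fixed pattern of letters with a fixed spacing between its arms. Forms with other letters or another spacing were not searched, so its count does not show which promoters lack an X-box. The full X-box inverted repeat was in 0 of 32 and in 0.646% of listed genes, and the forkhead letters TGTTTAC were in 1 of 32 (3.12%) against 3.09%. Among other letters searched on both strands, CCAAT was in 43.8% of the 32 against 40.3% of listed genes. The letters TTTAAA were in 15.6% against 11.4%, and the letters CGCGCG in 21.9% against 27.9%. A match is a description of these letters and not a binding site. The windows below are those of genes with the letters whose WT and 5xFAD values did not overlap. The arm is in capitals, read 5′ to 3′ on the strand of the gene. For Dnah17, Kif5b and Map4, whose groups also did not overlap, the letters were not found in a matched promoter.
Dnah10, before the start: cgcgctggcgccGTTGCCcaggtccccgtt
Dnah10, after the start: gctagggtcgccGTTGCCacggacgcccgc
Cfap300: aacacaaagactGGCAACctccttccattt
Bbs5: caaagccggcgcGTTGCCtt
Map1b: tggaggagtggaGGCAACcaccacgaggac
Their positions are chr5:124725053-124725082 and chr5:124725083-124725112 (both plus strand) for Dnah10, chr9:8042980-8043009 (minus) for Cfap300, chr2:69647201-69647220 (plus) for Bbs5 and chr13:99516758-99516787 (minus) for Map1b. The arm starts 20 bases before and at base 11 after the start of Dnah10, and 122 bases before that of Cfap300, counted from the RefSeq start. It starts at base 43 of Bbs5 and 173 bases before the start of Map1b. The other genes with the letters were Cep112, Cep128, Cep97, Dync1i2, Dync2h1, Ift88, Kif18a, Tctn2 and Ttll5.

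Of the 40 genes, 1 rose in 5xFAD and 0 fell (limma on log2(normalised count + 1), Benjamini-Hochberg adjusted p under 0.05, 4152 genes tested). The gene was Dnah10, a heavy chain of axonemal inner dynein arms. Over all tested genes 1.88% were called higher and 4.48% lower, so the share of called genes here was near or below that background. By edgeR on the recovered reads 1 gene was higher (1.93% of all tested genes) and 0 lower (4.12%). By DESeq2 2 were higher (3.96%) and 0 lower (6.41%). At an unadjusted p under 0.05, limma gave 6 of 40 (15.0%) against 16.3% of all tested genes. The median log2 fold change was -0.19, against -0.02 for all tested genes, and the median size without sign was 0.76 against 0.79. All 40 genes passed the minimum mean of 10 normalised counts, and 26 had a log2 fold change below 1 in size.

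Every 5xFAD library lay above every WT library for 4 genes (10.0%, against 7.97% of all tested genes), among them Dnah10, Kif5b and Map4. Every 5xFAD library lay below every WT library for another 4 (10.0%, against 10.1%): Cfap300, Dnah17, Bbs5 and Map1b. The groups overlapped for the other 32. Fewer cells of a type and less RNA per cell cannot be told apart in such bulk samples.

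**Figure D1:**
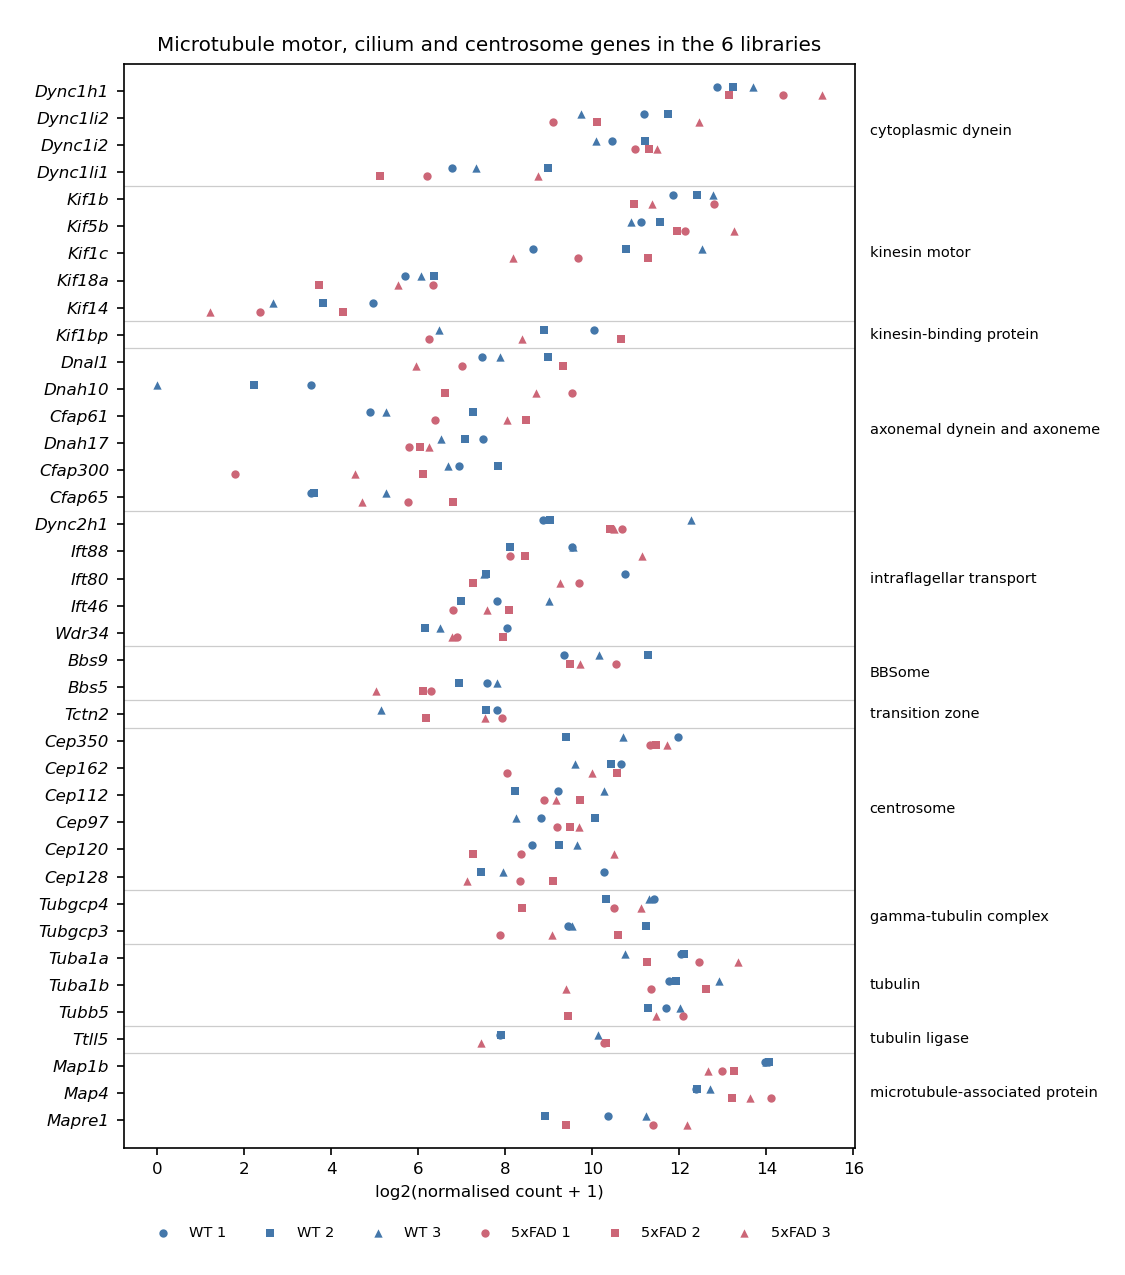
Normalised counts of 39 of the 40 genes on a log2(value + 1) scale, 1 point per library (blue WT, red 5xFAD, marker shape the replicate number), grouped by role. The 3 WT points of Dnah10 lie far to the left of its 3 5xFAD points, while for 32 genes the colours overlap.

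**Figure D2:**
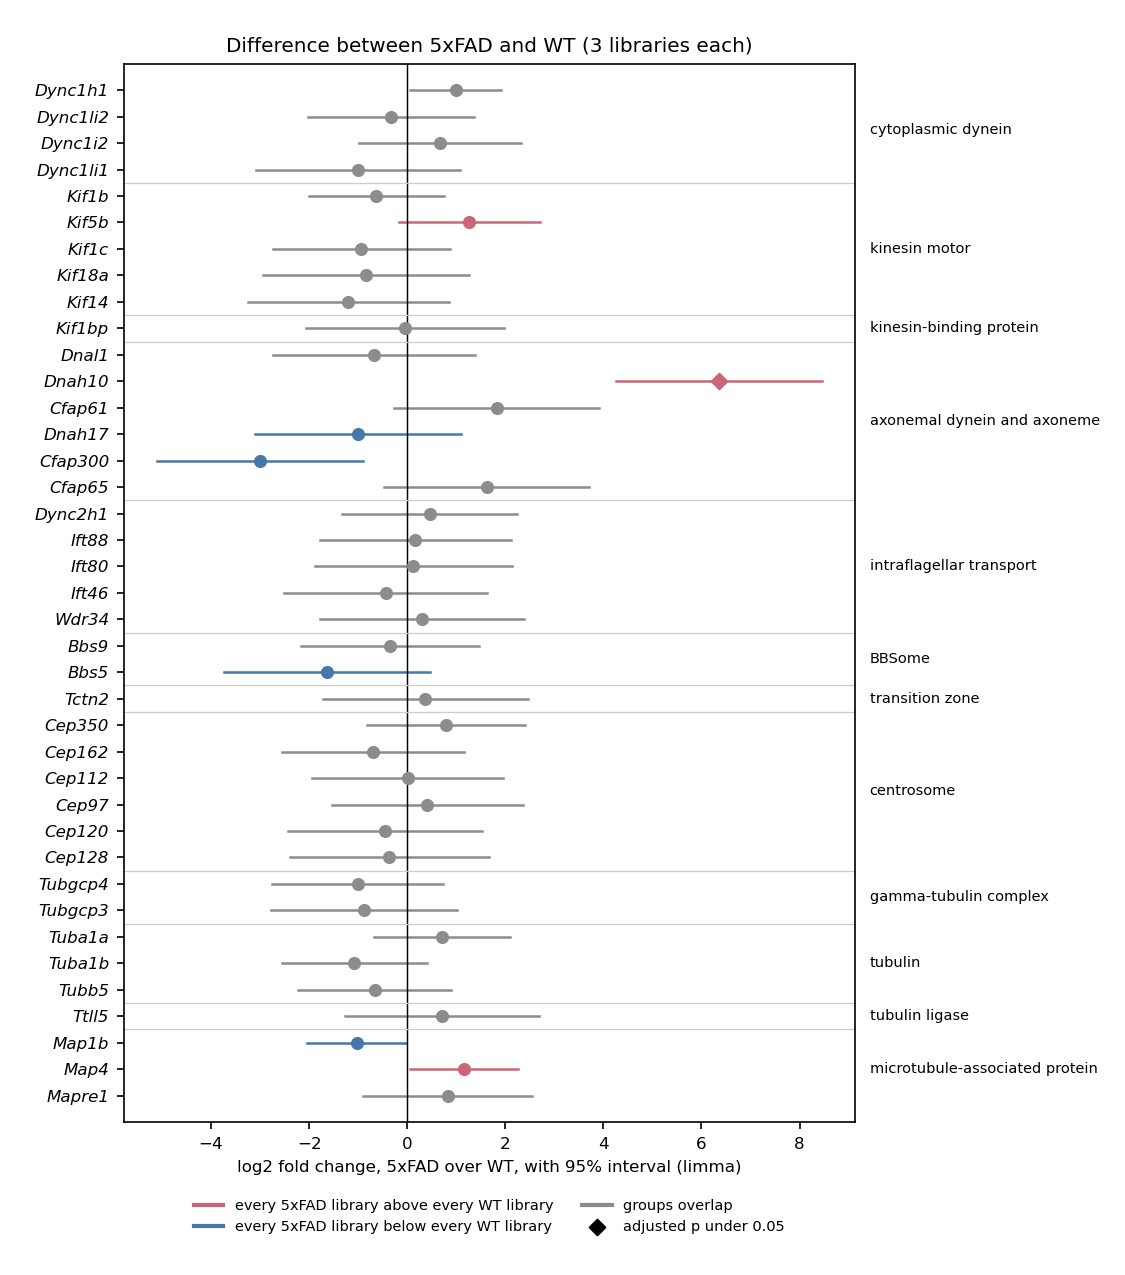
Log2 fold change of 5xFAD over WT with its 95% interval from limma for 39 of the 40 genes, 3 libraries per group. Red and blue mark genes whose groups do not overlap, and the diamond marks Dnah10, the 1 gene with an adjusted p under 0.05.

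Axonemal genes stood at both ends of the range. Dnah10 (chromosome 5, 124725085 to 124834308) was at 10.7, 3.72 and 0 normalised counts in WT 1, 2 and 3, and at 737, 97.3 and 419 in 5xFAD 1, 2 and 3. These values are 13, 4 and 0 reads in WT and 888, 80 and 316 in 5xFAD. All 3 WT libraries were near 0 and all 3 5xFAD libraries held at least 80 reads. Mean levels were 4.80 ± 5.42 for WT against 418 ± 319.6 for 5xFAD (SD over 3 libraries each), a log2 fold change of 6.36 (95% interval 4.26 to 8.45; limma adjusted p = 2.58e-07). The adjusted p over all settings tried ranged from 1.48e-08 to 0.000296 (limma, edgeR, DESeq2). Left-out libraries that moved the size by over 1.5 times were WT 1 (log2 fold change 7.17), WT 3 (5.39), 5xFAD 1 (5.74) and 5xFAD 2 (7.19). Exons of the predicted gene Gm43777 overlap those of Dnah10, and strand-specific counting is not stated.

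The other axonemal genes did not pass the test. Dnah17, a heavy chain of outer dynein arms, was at 178, 135 and 91.1 in WT and 54.7, 64.4 and 75.6 in 5xFAD, a log2 fold change of -1.002. Its groups did not overlap, and its sign is opposite to that of Dnah10. Exons of Pgs1 and Gm11738 overlap those of Dnah17, exons of Pnma1 those of Dnal1 and exons of Crnkl1 those of Cfap61. The part of such reads in these values was not tested. Dnal1, an outer arm light chain, was at 177, 502 and 235 in WT and 128, 644 and 61.0 in 5xFAD. Its groups overlapped widely. Cfap300, which takes part in the assembly of dynein arms, was at 122, 227 and 103 in WT and 2.49, 68.1 and 22.6 in 5xFAD. All 3 5xFAD libraries were lower, with 5xFAD 1 at 3 reads. Its log2 fold change was -3.00 (95% interval -5.10 to -0.90; limma adjusted p = 0.0707), and its values by library are given because its size was seen. Without 5xFAD 2 it was -3.98 and the gene passed (limma adjusted p = 0.019), and without 5xFAD 1 it was -1.82 (limma adjusted p = 0.515). Cfap61, a radial spoke protein, and Cfap65, a protein of the sperm flagellum, had log2 fold changes of 1.82 and 1.62 with overlapping groups (limma adjusted p = 0.412 and 0.488).

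Of 27 fixed markers of ependymal and multiciliated cells 2 were listed, and neither was called. Mcidas, a regulator of multiciliated cell fate, was at 6, 4 and 1 reads in WT and 21, 11 and 7 in 5xFAD, too few to enter the test. Rfx3, an X-box binding factor, was at 100.3, 81.8 and 120.3 normalised counts in WT and 427, 297 and 154 in 5xFAD (log2 fold change 1.43; limma adjusted p = 0.572). Both had groups without overlap and neither was at 0 in a library, but within 5xFAD the order of Rfx3 over the libraries was not that of Dnah10. The summed level was 85.5 to 121 in WT and 163 to 445 in 5xFAD (exact permutation p = 0.1, two-sided, the smallest 3 against 3 can give). The other 25 markers, Foxj1 among them, were not analysed here, and the part of such cells in the Dnah10 difference was not tested.

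Of the 4 cytoplasmic dynein genes 0 passed, and the groups overlapped for all 4. Dync1h1, the motor heavy chain (chromosome 12, 110601452 to 110666945), was at 7492, 9695 and 13220.4 in WT and 21225, 8969 and 39544 in 5xFAD. The 2 highest libraries were 5xFAD 3 and 5xFAD 1, but 5xFAD 2 lay within the WT range. Its log2 fold change was 0.99 (95% interval 0.06 to 1.92; limma adjusted p = 0.254). Without 5xFAD 2 it was 1.55 and passed (limma adjusted p = 0.0376), and without 5xFAD 3 it was 0.48 (limma adjusted p = 0.779). Dync1i2, an intermediate chain that links dynein to dynactin, was at 1395, 2375 and 1083 in WT and 2009.7, 2521 and 2848 in 5xFAD (log2 fold change 0.67). The light intermediate chains, which bind cargo adaptors, had log2 fold changes of -0.34 (Dync1li2) and -1.004 (Dync1li1). Dync1li2 spanned 546 to 5584 within 5xFAD alone, and Dync1li1 spanned 34.04 to 427.

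Among the kinesins 0 of 5 passed. Kif5b, the ubiquitous heavy chain of kinesin-1, was at 2209.8, 3003 and 1887 in WT and 4492, 3961 and 9851 in 5xFAD. All 3 5xFAD libraries lay above WT, and 5xFAD 3 was the highest. The log2 fold change was 1.27 (95% interval -0.16 to 2.70; limma adjusted p = 0.400). Kif1b, a kinesin-3 that carries vesicles and mitochondria, was at 3693, 5434 and 6964 in WT and 7103, 1983 and 2652 in 5xFAD. The highest and the lowest of its 6 values were both 5xFAD libraries, and its log2 fold change was -0.63. Kif1c, another kinesin-3, ran from 400.2 to 5832 in WT and from 287 to 2478 in 5xFAD (log2 fold change -0.94). Kif1bp, which binds kinesins but is no motor, had a log2 fold change of -0.04.

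The mitotic kinesins Kif14 and Kif18a had low counts, with 1 to 37 reads of Kif14 per library and log2 fold changes of -1.20 and -0.85. Of 26 fixed proliferation markers 4 were listed, with a sum of 271 to 441 in WT and 67.7 to 214 in 5xFAD (exact permutation p = 0.1, the smallest possible). Of these, Rrm1 and Mcm5, which act in DNA replication, fell (limma adjusted p under 0.05; log2 fold changes -4.87 and -3.34), and Birc5 and Prc1, which act in mitosis and cytokinesis, had log2 fold changes of -0.67 and -0.52. The part of cycling cells in the kinesin values was not tested.

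The 5 intraflagellar transport genes had log2 fold changes from -0.44 to 0.46, and 0 passed. Dync2h1, the motor of retrograde transport, was at 469, 524 and 4937 in WT and 1629.8, 1354 and 1434 in 5xFAD. The WT 3 library was about an order above the other WT libraries, so the WT mean of 1977 ± 2564 (SD, n = 3) rests on it. The log2 fold change was 0.46 with all libraries, 1.56 without WT 3 and -0.13 without WT 1. Ift88, needed to build the cilium, was at 743, 273 and 752 in WT and 274, 349 and 2267 in 5xFAD. Its log2 fold change was 0.17 (95% interval -1.79 to 2.12), an interval that does not show the groups to be alike. Reads of Ift88 and its antisense gene Ift88os cannot be told apart without strand. Ift80, Ift46 and Wdr34, the intermediate chain of dynein-2, had log2 fold changes of 0.13, -0.44 and 0.30.

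The BBSome sorts membrane proteins out of cilia. Bbs5 was at 191, 122 and 224 in WT and 78.0, 68.1 and 31.8 in 5xFAD. All 3 5xFAD values were lower, and the log2 fold change was -1.63 (95% interval -3.73 to 0.46; limma adjusted p = 0.485). Bbs9 was at 647, 2479.98 and 1147 in WT and 1482, 721 and 836 in 5xFAD, with overlap and a log2 fold change of -0.35. Tctn2, of the transition zone at the base of the cilium, was at 225, 189 and 34.5 in WT and 241, 71.7 and 186 in 5xFAD (log2 fold change 0.37).

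Centrosomal genes were 7, and 0 passed by limma. Cep97, which with CP110 caps centrioles, had a log2 fold change of 0.41. Cep350, a large scaffold of the centrosome, was at 4032, 674 and 1677 in WT and 2548, 2804 and 3365 in 5xFAD. Its WT libraries enclosed all 5xFAD values (log2 fold change 0.80). Cep112, Cep120, Cep128 and Cep162 had log2 fold changes from -0.70 to 0.01.

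Gamma-tubulin complex proteins start new microtubules. Tubgcp4 was at 2729, 1265 and 2539 in WT and 1444, 332 and 2225 in 5xFAD (log2 fold change -1.01), and Tubgcp3 had a log2 fold change of -0.89. Neither passed, and the groups overlapped for both. Ttll5, which adds glutamate chains to tubulin, was at 235, 238 and 1116 in WT and 1228, 1277 and 174 in 5xFAD. Each group held both a low and a high library, and the log2 fold change was 0.71.

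The alpha-tubulin genes Tuba1a and Tuba1b both lie on chromosome 15 (98949837 to 98953703 and 98931425 to 98934565) and have nearly the same coding sequence. Their coding sequences of 1356 bases were identical at 1333 positions (98.3%), and 58.2% of the 50-base windows of one occur unchanged in the other. Reads from the shared stretches can be assigned to either gene. Tuba1a was at 4233, 4438 and 1713 in WT and 5559.5, 2449 and 10379 in 5xFAD. Tuba1b was at 3448, 3904 and 7641 in WT and 2623, 6221 and 673 in 5xFAD. In WT 1 and WT 2 both genes were at similar levels. Further apart were the other libraries, with Tuba1b higher in WT 3 and 5xFAD 2 and Tuba1a higher in 5xFAD 1 and 5xFAD 3. The ratio of Tuba1a to Tuba1b was 1.23, 1.14 and 0.224 in WT and 2.12, 0.394 and 15.4 in 5xFAD. The sum of both was 7681, 8342 and 9354 in WT and 8183, 8669.5 and 11052 in 5xFAD. From the lowest to the highest library the ratio varied 68.8-fold and the sum 1.44-fold. This tubulin sum was looked at after the single values had been seen. A steady sum was not particular to the tubulins: that of Map4 and Map1b varied 1.35-fold, with a ratio that varied 6.81-fold. The sum of Dync1h1 and Dync1i2 varied 4.77-fold and that of Dync1li2 and Dync1li1 9.72-fold. The log2 fold changes of 0.71 and -1.08 did not pass (limma adjusted p = 0.713 and 0.527) and are uncertain. How reads were divided between the copies was not examined, and bases outside the coding sequences were not compared. Tubb5, a beta-tubulin with near-identical relatives, was at 3324, 2472 and 4167 in WT and 4318, 698 and 2839 in 5xFAD.

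Map1b and Map4 had the smallest WT spread of the 40 genes on the log2 scale. Map1b, a stabilizing protein best known from growing axons (chromosome 13, 99421446 to 99516540), was at 16086, 16944 and 16156 in WT and 8134, 9754 and 6473 in 5xFAD. The WT libraries lay close together, and every 5xFAD library was lower. Mean levels were 16395 ± 477 for WT against 8120.3 ± 1640.5 for 5xFAD (SD over 3 libraries each), a log2 fold change of -1.03 (95% interval -2.03 to -0.03; limma adjusted p = 0.276). Map4, the main non-neuronal member of the MAP2 and tau family (chromosome 9, 109931460 to 110083955), was at 5297, 5395 and 6714 in WT and 17626, 9490.1 and 12664 in 5xFAD. Here every 5xFAD library was higher, and the mean was 5802 ± 792 against 13259.8 ± 4100.5 (SD, n = 3 each). The log2 fold change was 1.15 (95% interval 0.05 to 2.26; limma adjusted p = 0.265).

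Neither Map1b nor Map4 passed under any setting tried (limma, edgeR and DESeq2 adjusted p from 0.170 to 0.629 and from 0.232 to 0.566). In the limma fit the prior variance had full weight, so a gene's own replicate spread did not enter its standard error. The ratio of Map4 to Map1b was 0.329, 0.318 and 0.416 in WT and 2.17, 0.973 and 1.96 in 5xFAD, and the groups did not overlap. This ratio was chosen after the values were seen. Of 22 fixed neural markers 2 were listed. Slc1a3, a glutamate transporter of astrocytes, was at 160.3, 834 and 109.7 in WT and 583, 1356 and 1873 in 5xFAD, with overlap (log2 fold change 2.21; limma adjusted p = 0.210). The part of neural cells in the Map1b and Map4 values was not tested. Mapre1, which tracks growing plus ends, ran from 478 to 2406 in WT and from 677 to 4621 in 5xFAD (log2 fold change 0.82).

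**Figure D3:**
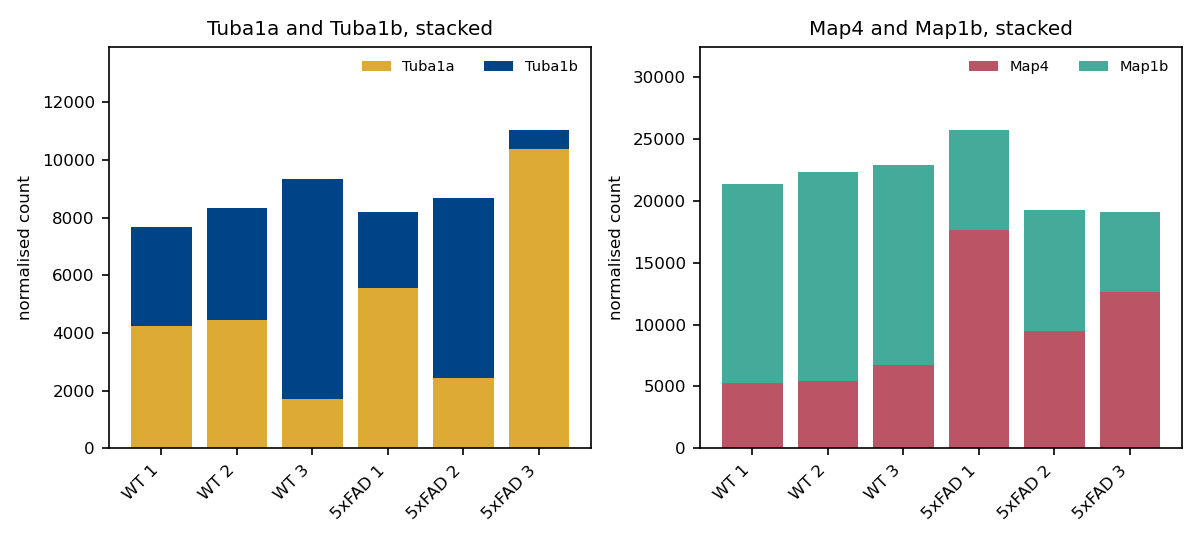
Normalised counts in each library of Tuba1a and Tuba1b (left) and of Map4 and Map1b (right), stacked so that the bar height is the sum of the pair. The tubulin sums stay between 7681 and 11052 while the split varies from library to library, and Map4 takes the larger part of its pair only in 5xFAD 1 and 5xFAD 3.

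Levels were compared between genes per kilobase of exon (all annotated exons merged, GENCODE vM21 on GRCm38, the assembly of mm10). The merged length, 1.80 kilobases for Tuba1a and 15.8 for Map1b, may not be that of the expressed transcript. Coverage along the transcripts of the amplified RNA was not examined, so the order between genes depends on this measure. In WT the order was Tuba1b (2665 ± 1227 normalised counts per kilobase), Tuba1a (1919.8 ± 842), Map1b (1035 ± 30.1), Tubb5 (998 ± 255) and Dync1h1 (647 ± 185; SD, n = 3 for each). The alpha-tubulins did not differ beyond their spread, nor did Map1b and Tubb5. In 5xFAD the order was Tuba1a (3399 ± 2216), Tuba1b (1692 ± 1501), Dync1h1 (1485 ± 983), Map4 (876 ± 271) and Tubb5 (787 ± 547; SD, n = 3 for each), neighbours again within their spread. Dnah10 had the lowest WT level of the 40 (0.298 ± 0.337) and rank 31 in 5xFAD (26.0 ± 19.9), and Kif14 had the lowest 5xFAD level (0.763 ± 0.875).

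**Figure D4:**
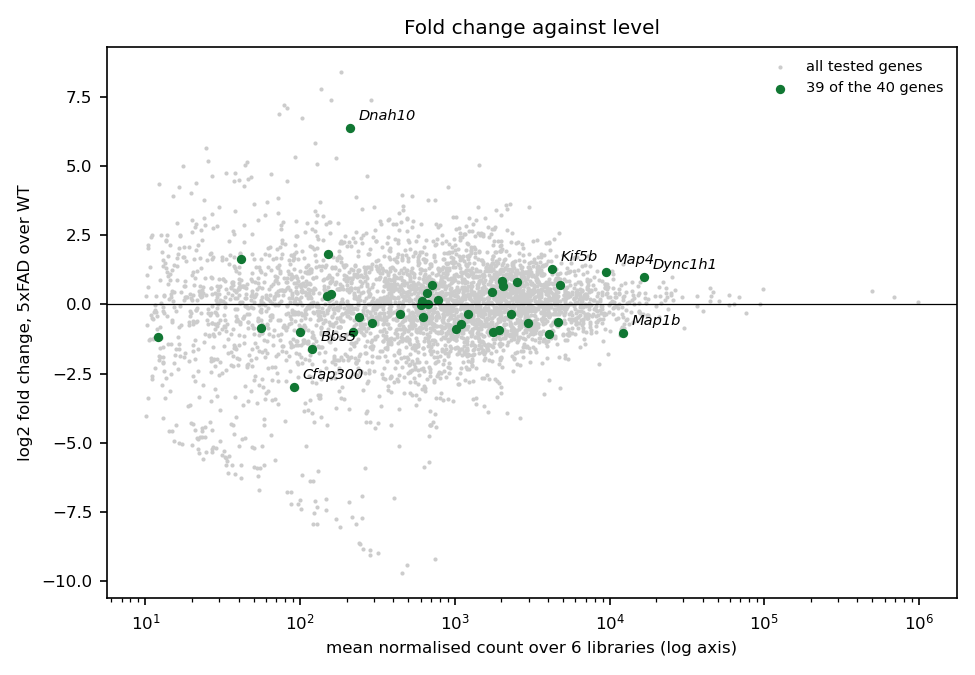
Log2 fold change of 5xFAD over WT against the mean normalised count (log axis) for all 4152 tested genes (grey) and 39 of the 40 genes (green). Dnah10 lies far above zero at a low level, while genes with high counts such as Dync1h1, Map4 and Map1b lie near 1 or -1.

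The spread between libraries was wide for most of the 40 genes. The highest library exceeded the lowest by a median of 7.34-fold for the 39 genes with reads in every library. For all tested genes with reads in every library it was 8.01-fold. Of the 39 genes, 14 had a ratio over 10-fold and 0 had a ratio under 2-fold. Dnah10, without a read in WT 3, has no such ratio. The library 5xFAD 3 held the highest value of 9 genes (22.5%, against 22.4% of all tested genes) and the lowest of 8 (against 20.4% of all tested genes). Dync1h1, Kif5b, Tuba1a and Ift88 were among the former and Tuba1b, Kif1c and Ttll5 among the latter. Exons of other annotated genes overlap 17 of the 40, among them Kif18a (Mettl15) and Tubgcp4 (Trp53bp1 and Zscan29).

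Partners of these genes that the name rule does not take were described from lists of 227 symbols, of which 41 were listed and tested. Of the 41, 0 rose and 1 fell by limma (4 at an unadjusted p under 0.05), and the median log2 fold change was -0.17. Over all tested genes 1.88% were higher, 4.48% lower and 16.3% at an unadjusted p under 0.05, and the shares of the 41 were below these. The gene was Poc1b, a centriole protein, at 27.9, 21.4 and 69.9 in WT and 0, 10.9 and 2.65 in 5xFAD (log2 fold change -3.35; limma adjusted p = 0.0257). It had at most 9 reads in a 5xFAD library, and the call was lost without WT 3, 5xFAD 1 or 5xFAD 3 (limma adjusted p = 0.148, 0.305 and 0.0794), by edgeR (adjusted p = 0.111) and by DESeq2 (adjusted p = 0.0673). Without 5xFAD 2 the log2 fold change was -4.23. In dynactin and dynein adaptors 0 of 8 passed. Dctn1, the dynactin subunit that binds dynein, was at 728, 92.1 and 705 in WT and 3615, 771 and 4843 in 5xFAD (log2 fold change 2.71; limma adjusted p = 0.0612). Its 5xFAD libraries all lay above WT. Ndel1, a dynein regulator, was at 729, 1827 and 363 in WT and 231, 42.6 and 137 in 5xFAD (log2 fold change -2.81; limma adjusted p = 0.0841).

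No gene passed among transition zone and basal body genes (9 tested), plus-end, severing and stabilizing proteins (11) or tubulin folding and modification (3), and no Hedgehog pathway gene was analysed here. Tulp3, an adaptor for receptor entry into cilia, had the largest size of the first list (log2 fold change 2.49; limma adjusted p = 0.104). The lowest adjusted p of the second list was that of Macf1, a giant linker of actin and microtubules, at 41293, 31614 and 32008 in WT and 62139, 37050 and 62006 in 5xFAD (log2 fold change 0.59; limma adjusted p = 0.309).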

How the data were processed

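Sorted cells were processed with PicoPure and their RNA was linearly amplified, per the labels' protocols. The submitters' processing notes list FastQC, Trimmomatic, Salmon, DESeq2 and mm10 and give no versions. The deposited values are a normalized signal, counts divided by 1 factor per library. Division by the smallest value of each library gave whole numbers (100% within 1e-06), taken as recovered reads. The main test was limma 3.58.1 (R 4.3.3; eBayes with a trend) on log2(value + 1), which understates changes of low genes, for genes with a mean of at least 10. All tests were two-sided. Alternatives included edgeR 4.0.16 and DESeq2 1.42.0 on recovered reads. Genes given by library were those that passed, those without reads in a group, and per role the most abundant and that with the smallest p. Further genes were added after their values were seen, and are given by library or by range. Members and lists were chosen with earlier results of these data known. Values of 1 of the 40 genes and of 1 neural marker are not reported here, and the gene is left out of the figures but kept in all counts. The limma step was tested on simulated counts. These were drawn without the limit on replicate spread seen among the listed genes, so the rates may differ for the deposited values. In the simulated counts the limma step called 6.06%, 70.1% and 98.5% of genes with a true log2 change of 2, 4 and 6 in size. Of genes without a change it called 0.0254%. A gene that did not pass is thus not shown to be alike in both groups.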

Additional observations from a re-analysis of the deposited data

How the results depend on the processing

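Dnah10 kept its call and its direction in all 19 settings. The count of 1 higher gene became 2 with a prior without trend, quantile normalization, DESeq2 or an adjusted p under 0.1; the cause was not tested, apart from the looser threshold. The count of 0 lower genes became 1 (Cfap300) at an adjusted p under 0.1. Leaving out single libraries gave 1 to 2 higher and 0 to 1 lower. For the partner genes, 0 higher became 1 (Dctn1) with DESeq2 or an adjusted p under 0.1. The 1 lower became 0 with a pseudocount of 5, a mean of at least 50 (Poc1b is not tested there), quantile normalization or edgeR, and 2 (Ndel1 and Poc1b) at an adjusted p under 0.1, while DESeq2 called Ndel1 in place of Poc1b; the cause was not tested for the others. Left-out libraries gave 0 to 1 in each direction. With the replicate number as a block the counts were 1 and 0 for the 40 genes and 0 and 1 for the partners. The numbers did not pair the libraries: deviations correlated at 0.00247, -0.0157 and -0.0126 within a number, and each of the 6 libraries correlated best with another number. Of the 18 genes given by rule, 4 changed sign in a setting: Bbs9 (-0.81 to 0.16 with a library left out, positive without WT 2), Dnal1 (-1.63 to 0.060, positive without 5xFAD 3), Tctn2 (-0.48 to 0.88, negative without WT 3) and Dync2h1 (-0.13 to 1.56, negative without WT 1 and, at -0.05, without WT 2; -0.47 with edgeR). Of all 40 genes, 25 kept their sign in every setting. Those that did not also included Cep112, Cep120, Cep128, Cep162, Ift88, Ift80, Ift46, Wdr34, Dync1li2, Kif1bp and Tubb5. Under equal library totals the median over all genes was -0.14 in place of -0.02 (log2 fold change). With a pseudocount of 5, Dnah10 had a log2 fold change of 5.17. With 3 pools per group and few reads of Dnah10, Kif14, Cfap300 and Poc1b, the sizes of their differences are imprecise.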
